A study of Mus musculus with 4 samples.

Results

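The genes described here are 36 mouse genes known as targets of the tumour suppressor p53, chosen by name from a list that spans cell cycle arrest, apoptosis, DNA repair and metabolism, and read from the 47 probes that carry those names among 39429 probes on the array. The probe with the highest signal stood for a gene. All 36 passed the filter on dim probes, with signal well above background in both genotypes on 4 of 4 arrays, and they make up 36 of the 18185 genes tested. The tissue was the ureter of NMRI mice at stage E18.5, shortly before birth. The mutant ureters, called cKO here, were Pax2-cre/+; Trp63(dN-flox/dN-flox), and the control ureters were Trp63(dN-flox/?), for which the labels list no cre. Every RNA therefore came from an embryo with at least 1 floxed Trp63 allele. With the cre listed for the cKO ureters only, its presence cannot be told apart from the deletion. The cre is driven by Pax2, a gene active in the nephric duct that gives rise to the ureter epithelium. The 4 arrays each compared 1 cKO RNA with 1 control RNA in 2 colours, 3 as female pairs and 1 (array 2) as a male pair. Nothing in the labels says whether an RNA came from 1 embryo or several. The p-values therefore reflect only how the 4 arrays vary.

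The transcription factor p53, encoded by Trp53, is stabilised by DNA damage and other stress and binds paired decamers in the DNA near its target genes. Its products halt the cell cycle, repair DNA, adjust metabolism or trigger cell death, and Mdm2, itself a target, marks p53 for degradation. ΔNp63, the isoform removed here, is a p53 relative that lacks the N-terminal activation domain of p53 and recognises similar DNA sequences. It is the main p63 form of basal epithelial cells, in which it can activate some p53 targets and hold others down.

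Median spot signals lay between 460.3 and 598.4 units in cKO RNAs and between 477.1 and 607.3 units in control RNAs, over background medians of 31 to 82. The share of spots called well above background was 82.6% for the cKO RNA and 90.0% for the control RNA of array 1. Arrays 2 to 4 had shares of 72.4% to 76.5% for cKO RNAs and 72.6% to 76.4% for control RNAs. Trp63 had a log2 ratio of cKO over control of -2.18 ± 0.50 (SD, n = 4) at its brightest probe, with -2.86, -1.68, -2.03 and -2.13 on arrays 1 to 4. It passed the threshold (adjusted p = 0.00211). Of its other probes, 1 had a ratio of -0.14 and the others -1.77 and -1.44. Where the deletion lies relative to these probes is not recorded in the files, and probes beyond it cannot check it. Because whole ureters were measured, fewer cells of a type and less RNA per cell cannot be told apart.

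Most p53 target genes lay close to equality between the genotypes, while Cdkn1a, Gadd45a, Ccng1, Phlda3, Sesn2 and Sesn3 fell in the cKO and Gadd45g and Rprm rose. In this test a gene counts as changed at an adjusted p under 0.05 (limma, Benjamini-Hochberg over all 18185 genes), a threshold that 8 of 36 targets (22.2%) and 8.51% of all genes passed. Downward, 6 targets (16.7%) passed, against 5.6% of all genes, and upward 2 (5.56%), against 2.9%. With the median in place of loess as centring the split was 1 higher and 6 lower, against 475 and 1059 of all 18185 genes. With scaling between arrays it was 1 and 7, against 523 and 1038 of all genes. The signals processed by Agilent's software gave 1 and 5, against 473 and 868 of all genes. The values in the authors' deposited table gave 0 higher and 5 lower, against 252 and 581 of all genes. As reported, 528 of all genes were higher and 1019 lower. At an unadjusted p under 0.05, 14 targets passed (38.9%, against 23.7% of all genes), 4 of them higher (11.1%, against 10.8%) and 10 lower (27.8%, against 12.8%). No test was made of the target genes as a set. Their median ratio was -0.05 ± 0.04 (SD of the 4 per-array medians) beside 0.00 for all genes, and their median absolute ratio was 0.09 beside 0.08. The targets spanned -0.69 to 0.49, so none reached a 2-fold difference. Of the 36, 9 had a ratio above 0, and 14 (38.9%) had the same sign on 4 arrays, against 30.6% of all genes. Of these, 3 were higher (8.33%, against 14.3% of all genes) and 11 lower (30.6%, against 16.3%). In 6 targets the 4 cKO levels all lay below the 4 control levels (16.7%, against 6.18% of all genes), and in 1 they lay above (2.78%, against 3.66%).

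**Figure D1:**
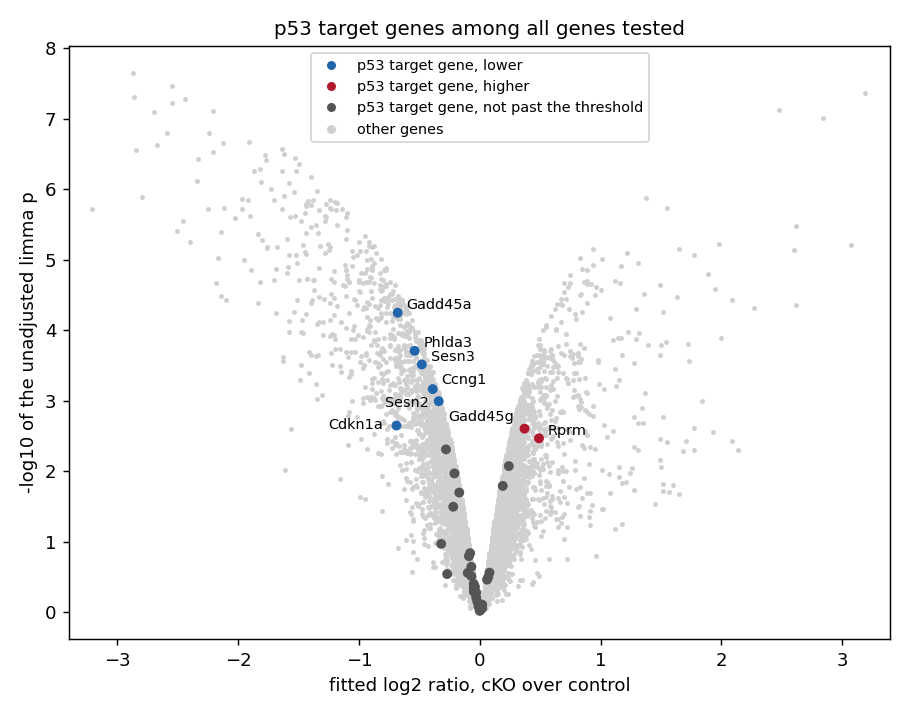
Fitted log2 ratio of cKO over control (x axis) against -log10 of the unadjusted limma p (y axis) for 18185 genes in grey, with the 36 p53 target genes in colour. The 6 targets that fell and the 2 that rose lie between -0.69 and 0.49, well inside the spread of all genes, which runs from -3.21 to 3.19.

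Promoter windows of the target genes were searched for the p53 decamer, the 10-base element that p53 and p63 bind as a pair, to show what the windows of changed and unchanged members share. RefSeq (GRCm38.p6) gave 38 windows of 250 bases before the start for 30 of the 36 members. The decamer was found without mismatch in 10 of 38 windows (26.3%) and in 2341 of the 32851 windows of all genes (7.13%). The members were listed as known p53 targets, so their higher share is no result of these arrays. The decamer pattern equals its own reverse complement, so both strands were read in 1 pass. Among the 8 changed members it occurred in 3 of 9 windows, those of Cdkn1a, Ccng1 and Gadd45a, which all fell. These 3 windows are shown 5′ to 3′ with the decamers in capitals, because they belong to fallen genes. They lie at chr17:29090729-29090978 (plus strand), chr11:40755287-40755536 (minus strand) and chr6:67037408-67037657 (minus strand).
Cdkn1a: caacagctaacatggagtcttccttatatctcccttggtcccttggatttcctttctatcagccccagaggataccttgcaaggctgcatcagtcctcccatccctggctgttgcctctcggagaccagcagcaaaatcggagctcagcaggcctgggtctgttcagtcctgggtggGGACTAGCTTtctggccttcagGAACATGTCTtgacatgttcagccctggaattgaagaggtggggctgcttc
Ccng1: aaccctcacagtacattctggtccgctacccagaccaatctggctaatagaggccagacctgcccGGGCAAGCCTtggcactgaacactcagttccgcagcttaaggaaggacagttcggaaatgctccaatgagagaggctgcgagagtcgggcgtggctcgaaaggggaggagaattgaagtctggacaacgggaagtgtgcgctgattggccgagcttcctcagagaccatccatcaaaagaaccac
Gadd45a: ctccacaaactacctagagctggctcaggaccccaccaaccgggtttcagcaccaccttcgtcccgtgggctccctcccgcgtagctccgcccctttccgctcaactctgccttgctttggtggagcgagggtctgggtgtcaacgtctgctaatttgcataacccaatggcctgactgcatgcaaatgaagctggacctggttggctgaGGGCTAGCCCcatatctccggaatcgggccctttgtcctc
The Cdkn1a window belongs to the upstream of 2 annotated starts and holds 2 decamers, whose first bases lie 73 and 51 bases before that start. The window of the downstream start holds none. Decamers with a mismatch were not searched and are not marked, such as tgacatgttc directly after the second Cdkn1a decamer. Whether the 2 marked decamers form a pair was not tested. The Gadd45a decamer begins 40 bases and the Ccng1 decamer 185 bases before the start. The windows of Phlda3, Sesn2, Sesn3, Gadd45g and Rprm hold no such decamer, which says only that these letters are absent from 250 bases. The other 7 windows with a decamer belong to members that did not pass the threshold, and their decamers are shown for comparison with those of the fallen genes.
Ei24: GGGCATGCCC
Ckap2: AGACATGTCC
Bax: AGGCAAGCTT
Aen: GGGCTTGTCC
Pml: GGGCTTGTTT
Polk: GAACTAGCCT
Sesn1: AAGCTTGTTT
The decamer was thus present in windows of members that fell and of members that did not pass. The Sp1 motif GGGCGG, read on both strands, was in 28 of 38 member windows (73.7%) and in 32.7% of all windows. Among windows of changed members it was in 6 of 9 (66.7%). Median GC content was 62.6% in member windows, against 52.4% in all windows, and the median CpG count 16 against 6. These shares describe the listed genes and are likewise no result of these arrays.

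Among the 10 targets that act on the cell cycle, 3 fell, 2 rose and 5 did not pass, where 5.6% of all genes fell and 2.9% rose. Cdkn1a encodes p21, the inhibitor of cyclin-dependent kinases through which p53 halts the cycle in G1. Its normalised intensity was 1234, 2398, 2661 and 2260 units in the cKO RNAs of arrays 1 to 4, against 2680, 3702, 3456 and 3525 units in the control RNAs. The cKO levels all lay below the control levels, with the highest cKO and the lowest control value almost touching. The log2 ratio was -0.69 ± 0.31 (SD, n = 4; 1.61-fold lower, adjusted p = 0.0341), and array 1 had the deepest value, -1.12. Leaving out array 2 or array 4 ended the call (adjusted p = 0.0941 and 0.118), as did the signals processed by Agilent's software (0.0527), the authors' deposited ratios (0.095) and the mean of its 3 probes (0.0561). Separate channels without an array block also ended it (limma adjusted p = 0.29), and it held in 9 of 15 alternatives. The brightest probe lies on chromosome 17 at 29237377 to 29237436 (mm9, plus strand), and the dimmer Cdkn1a probes had ratios of -0.34 and -0.15, with adjusted p over probes of 0.215 and 0.324.

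Of the 3 Gadd45 genes, small stress proteins that bind p21 and PCNA, Gadd45a fell, Gadd45g rose and Gadd45b did not pass. Gadd45a had 1439, 1552, 1901 and 1657 units in cKO ureters, against 2225, 2840, 2785 and 2665 units in control ureters. Its levels did not overlap, and its ratio of -0.68 ± 0.14 (1.61-fold lower, adjusted p = 0.00349) had the lowest p of the 36 genes. Gadd45g had 18690, 18721, 17508 and 22317 units in cKO ureters, against 15389, 14020, 16274 and 14097 units in control ureters. It rose on each array by 0.28, 0.42, 0.11 and 0.66, a fitted ratio of 0.37 ± 0.24 (1.29-fold, adjusted p = 0.0362). That call ended with any of the 4 arrays left out (adjusted p = 0.0516 to 0.152), with Agilent's signals (0.052), median centring (0.0539), the authors' deposited ratios (0.0768), no dye term (0.0549) or no array block (0.0511). It held in 6 of 15 alternatives. Gadd45b had ratios of -0.11, 0.10, -0.03 and 0.34, and its adjusted p was 0.547. The differences between the 3 genes were not tested. The probes lie on chromosome 6 at 66985376 to 66985435 (Gadd45a), on chromosome 13 at 51943733 to 51943792 (Gadd45g) and on chromosome 10 at 80394367 to 80394426 (Gadd45b), all in mm9.

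Cyclin G1, a target that recruits phosphatase PP2A to Mdm2, fell by a small and even amount. Ccng1 had 17046, 16043, 15227 and 14530 units in cKO ureters, against 22510, 19534, 20739 and 19718 units in control ureters. The levels did not overlap, and the ratio was -0.39 ± 0.08 (1.31-fold lower, adjusted p = 0.0163), with adjusted p-values of 0.0708, 0.0738 and 0.0753 without array 1, 3 or 4. The Ccng1 call held in 11 of 15 alternatives. Rprm encodes reprimo, a protein linked to arrest in G2. It had 576, 1257, 1350 and 938 units in cKO ureters, against 441, 880, 755 and 806 units in control ureters. Each cKO value exceeded its partner on the same array, but the 2 ranges overlapped, and both RNAs of array 1 were low. The ratio was 0.49 ± 0.26 (1.4-fold, adjusted p = 0.0442), a call lost when array 2 (0.128), 3 (0.113) or 4 (0.0806) was left out. The Rprm call also ended with scaling between arrays (0.0597), no filter on dim probes (0.0585), the authors' deposited ratios (0.0691), and separate channels with the array as a block (0.0514) or without one (0.713), and it held in 7 of 15 alternatives.

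The remaining arrest genes did not pass. The polo-like kinase Plk2 had ratios of 0.10, 0.25, 0.15 and 0.44 (adjusted p = 0.0759), above 0 on each array. Its relative Plk3 had -0.95, -0.19, 0.05 and -0.17 (adjusted p = 0.326), and without array 3 its ratio of -0.57 had an adjusted p of 0.0222. Btg2, an antiproliferative factor that speeds mRNA decay, had -0.65, 0.35, 0.24 and 0.16 (adjusted p = 0.951), and Ckap2, a spindle protein, -0.12, -0.18, 0.05 and 0.04. In Plk3 and Btg2 array 1 lay lowest by far, at -0.95 and -0.65.

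**Figure D2:**
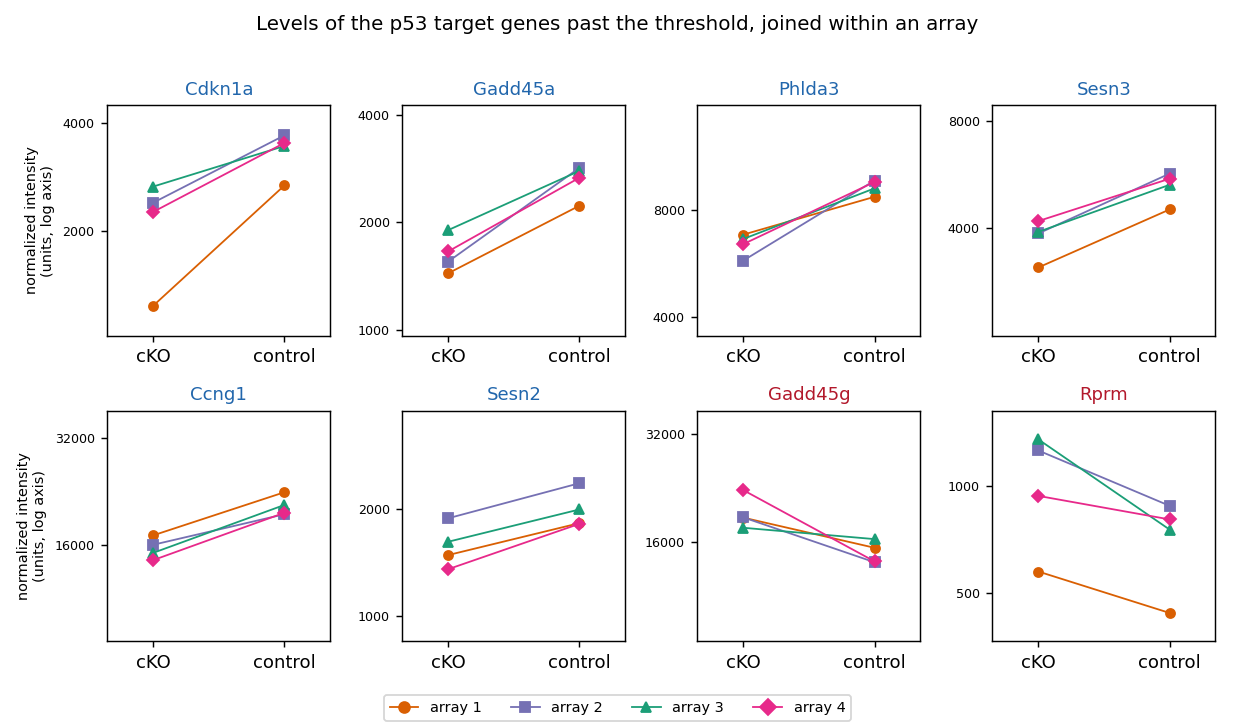
Normalised intensity (log axis) of the 8 p53 target genes past the threshold in cKO and control ureters; a line joins the 2 RNAs of an array. Cdkn1a, Gadd45a, Phlda3, Sesn3, Ccng1 and Sesn2 go up towards the control on each array, and Gadd45g and Rprm go down.

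Of the 14 targets in the mitochondrial branch of apoptosis and in survival, 1 fell, 0 rose and 13 did not pass (limma). Of all genes, 5.6% fell and 2.9% rose at that threshold. At an unadjusted p under 0.05, 5 of the 14 were lower and 1 was higher, against 12.8% and 10.8% of all genes. The gene that fell was Phlda3, whose product competes with the kinase Akt for membrane lipids and so restrains a survival signal. It had 6821, 5771, 6633 and 6416 units in cKO ureters, against 8705, 9667, 9192 and 9578 units in control ureters. The levels did not overlap, and the ratio was -0.54 ± 0.17 (1.45-fold lower, adjusted p = 0.00793), with an adjusted p of 0.000136 to 0.0411 over the 15 alternatives. Its probe lies on chromosome 1 at 137665642 to 137665701 (mm9).

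None of the direct effectors of cell death passed. Bax, which opens the outer mitochondrial membrane, had 3231, 3516, 4824 and 2911 units in cKO ureters, against 3055, 4734, 4083 and 4907 units in control ureters. Its ratios of 0.08, -0.43, 0.24 and -0.75 were above 0 on the 2 arrays with the cKO in red and below 0 on the 2 arrays with the cKO in green (fitted -0.22 ± 0.46, adjusted p = 0.164). Bbc3, which encodes the BH3-only protein Puma, had ratios of 0.48, -0.02, 0.31 and 0.02, also higher with the cKO in red (adjusted p = 0.111). Pmaip1, which encodes Noxa, spread the most of the 36 genes, with ratios of -1.08, 0.35, 0.10 and -0.43 (-0.27 ± 0.63, adjusted p = 0.562). Apaf1, the scaffold of the apoptosome, had ratios of -0.10, 0.07, -0.15 and 0.02.

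The antiapoptotic members also stayed near 0. Bcl2l1, which encodes Bcl-xL, had ratios of -0.28, 0.12, 0.03 and -0.08 and levels of 20107 to 31139 units in cKO ureters and 24437 to 28642 units in control ureters. Bcl2 had 0.20, 0.00, 0.21 and -0.33, and Triap1, a small protein of lipid transport in mitochondria, 0.02, -0.21, 0.12 and 0.05. Trp53inp1, a cofactor of p53 and of autophagy, had the lowest adjusted p of the 28 members that missed the threshold, with -0.42, -0.28, -0.23 and -0.18 (-0.28 ± 0.10, adjusted p = 0.0541). It was below 0 on each array and passed under 3 of 15 alternatives. Aen, a nuclease of apoptotic cells, was likewise below 0 on each array, at -0.12, -0.25, -0.19 and -0.14 (adjusted p = 0.126), and its cKO levels of 8431 to 9114 units lay below its control levels of 9282 to 10466 units. Ei24, a membrane protein of the endoplasmic reticulum, had a ratio of -0.21 ± 0.22 (adjusted p = 0.0867). The others were Pml, the scaffold of nuclear bodies, at -0.09, Zmat3, an RNA-binding protein, at -0.07, and Dram1, a lysosomal regulator of autophagy, at -0.01.

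The death receptors and the DNA repair genes did not pass in either direction by limma, and 0 of the 7 had an unadjusted p under 0.05, against 23.7% of all genes. With 7 genes, nothing is read from that count. Fas had 1099, 1340, 1308 and 1253 units in cKO ureters, against 1185, 1416, 1421 and 1281 units in control ureters, a ratio of -0.08 ± 0.04. Its 4 ratios were below 0, by at most 0.12 in size. Eda2r, the receptor of an ectodysplasin isoform, had 114 to 148 units in cKO ureters and 127 to 141 units in control ureters, and its ratio was -0.10 ± 0.18. The repair genes Ddb2 and Xpc, which recognise ultraviolet lesions, had ratios of -0.07 ± 0.17 and -0.02 ± 0.02. Ercc5, the nuclease of the same pathway, had -0.05 ± 0.04, the lesion-bypass polymerase Polk -0.04 ± 0.10, and Rrm2b, the p53-dependent subunit of ribonucleotide reductase, -0.03 ± 0.11.

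Of the 3 sestrins, stress proteins that curb the growth kinase mTORC1, Sesn3 and Sesn2 fell while Sesn1 did not pass. Sesn3 had 3108, 3870, 3910 and 4192 units in cKO ureters, against 4517, 5692, 5296 and 5508 units in control ureters. The levels did not overlap, and the ratio was -0.48 ± 0.08 (1.4-fold lower, adjusted p = 0.0099), with an adjusted p of 0.053 without array 1. The Sesn3 call held in 13 of 15 alternatives, with a highest adjusted p of 0.108 (limma). Sesn2 had 1483, 1880, 1616 and 1354 units in cKO ureters, against 1822, 2357, 1990 and 1814 units in control ureters. It was lower on each array, with ratios of -0.30, -0.33, -0.30 and -0.42, although the ranges overlapped (-0.34 ± 0.06, 1.26-fold lower, adjusted p = 0.0209). Its call ended with any array left out (adjusted p = 0.0589 to 0.101). It held in 10 of 15 alternatives, with a highest adjusted p of 0.343 (limma). Sesn1 had ratios of 0.02, -0.05, -0.01 and -0.10 (-0.03 ± 0.05, adjusted p = 0.76). The differences between the sestrins were not tested. Fdxr, a mitochondrial reductase, had a ratio of 0.07 ± 0.13, and Igfbp3, a secreted binder of insulin-like growth factors, 0.28, -0.14, 0.11 and -0.01. The Sesn3 probe lies on chromosome 9 at 14130452 to 14130511, the Sesn2 probe on chromosome 4 at 132048858 to 132048917, the Ccng1 probe on chromosome 11 at 40562427 to 40562486 and the Rprm probe on chromosome 2 at 53936668 to 53936727 (mm9).

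**Figure D3:**
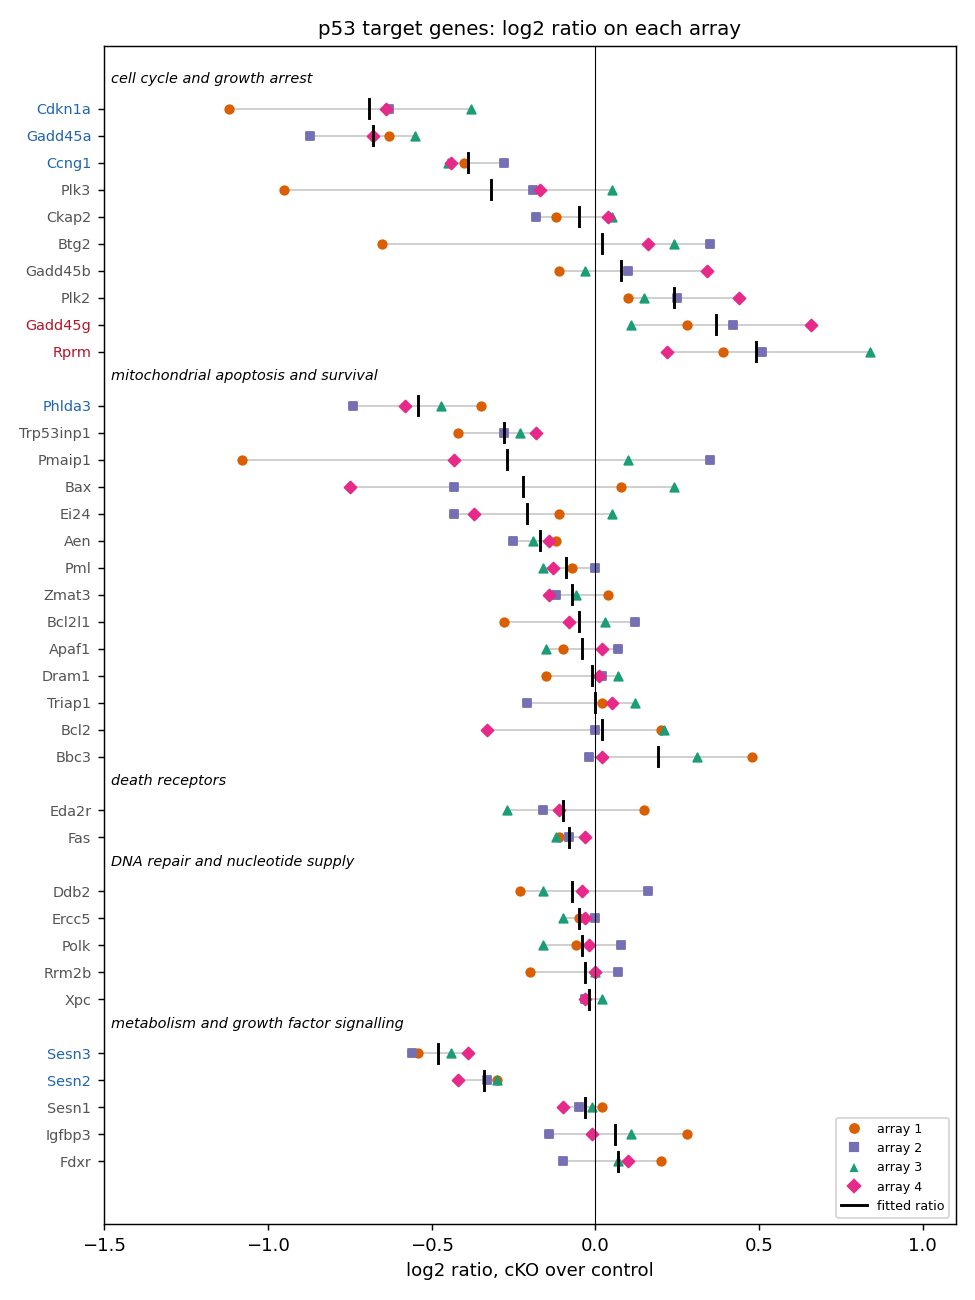
Log2 ratio of cKO over control (x axis) of each p53 target gene on arrays 1 to 4 (symbols) with the fitted ratio (black bar), by role; gene names are blue where the gene fell, red where it rose and grey otherwise. The fallen genes lie left of 0 on every array, whereas Bax, Btg2, Pmaip1 and Plk3 cross it with wide spreads.

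Of 54 other genes of the p53 pathway, 6 fell, 1 rose and 47 did not pass, where 5.6% of all genes fell and 2.9% rose. The median ratio of the 54 was -0.03 ± 0.03. With Agilent's processed signals 6 fell and 0 rose, against 868 and 473 of all 18185 genes. The deep falls were those of 3 genes active in stratified epithelium. Perp, a desmosomal tetraspan protein that both p53 and p63 can activate, had ratios of -2.98, -1.93, -2.52 and -2.44 (-2.46 ± 0.43). Serpinb5, the serpin maspin, had -2.34 ± 0.21, and Sfn, the 14-3-3 sigma protein of epithelial cells that holds cyclin B1-Cdk1 in the cytoplasm, had -1.70, -1.06, -1.42 and -1.53 (-1.43 ± 0.27, 2.69-fold lower, adjusted p = 0.00208). Each of the 3 passed under 15 of 15 alternatives.

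The other changes in the pathway were smaller. Ccnd2, a D-type cyclin, fell 1.44-fold (-0.53 ± 0.22, adjusted p = 0.0221), with an adjusted p of 0.0737 without array 3 and of 0.0838 without array 4. The Ccnd2 call held in 12 of 15 alternatives. Trp53i11, a p53-inducible membrane protein, fell 1.27-fold (-0.34 ± 0.06), and the checkpoint kinase Chek2 1.24-fold (-0.31 ± 0.15). Both calls ended with any array left out, at adjusted p-values of 0.0761 to 0.087 and of 0.0757 to 0.111. Each held in 10 of 15 alternatives, with highest limma adjusted p-values of 0.338 and 0.366. Adgrb1, an adhesion receptor first described as a p53-inducible inhibitor of vessel growth, rose 1.29-fold (0.60, 0.03, 0.50 and 0.35), a call lost when array 1 (0.164), 3 (0.108) or 4 (0.128) was left out. The Adgrb1 call held in 8 of 15 alternatives. Trp53 itself had ratios of 0.07, 0.08, -0.20 and -0.07 (adjusted p = 0.854). Mdm2 was below 0 on each array, at -0.30, -0.14, -0.32 and -0.32, and missed the threshold (-0.27 ± 0.09, adjusted p = 0.0504); it passed under 4 of 15 alternatives. Mdm4, the Mdm2 relative, had a ratio of -0.05 ± 0.33 and Trp73, the third family member, one of -0.09 ± 0.03.

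**Figure D4:**
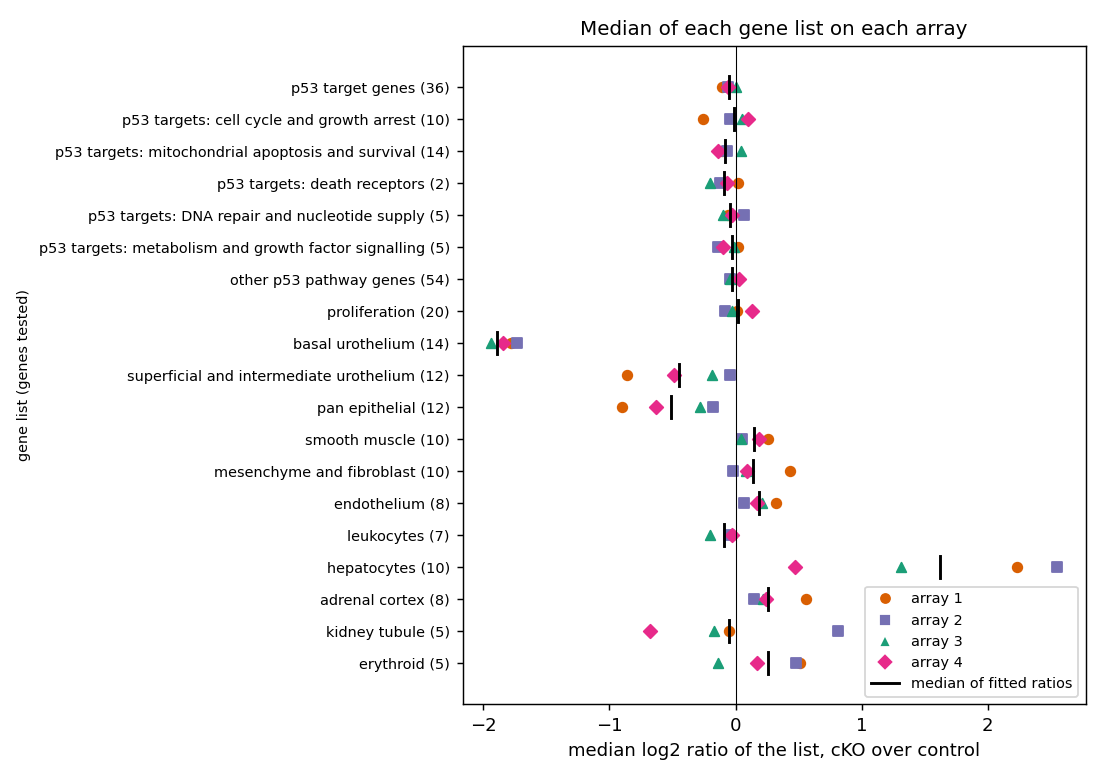
Median log2 ratio of each gene list on arrays 1 to 4 (symbols) and of the fitted ratios (black bar), with the number of genes tested in brackets. The p53 target lists sit near 0, the basal urothelium list near -1.89 and the hepatocyte list at 1.62 with a wide spread.

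In the same RNAs, the marker lists of epithelium, hepatocytes, adrenal cortex and kidney tubule held genes past the threshold. The other lists, such as smooth muscle and dividing cells, held none. Of 14 tested basal urothelium markers 11 fell and 1 rose, with a median of -1.89 ± 0.09 and a summed level of 20968 to 24057 units in cKO ureters and 93414 to 106444 units in control ureters. The 11 include Trp63, the targeted gene itself, with 2123 to 3691 units in cKO ureters and 11846 to 15426 units in control ureters. A summed level adds the intensities of different probes, so the brightest probes of a list weigh most in it. In the basal list Krt5 had 5088 to 6779 units in cKO ureters and 37718 to 50041 units in control ureters. Of 12 markers shared by epithelia 5 fell and 0 rose (9 and 0 at an unadjusted p under 0.05), with per-array medians of -0.90, -0.18, -0.28 and -0.63 and summed levels of 72427 to 120970 units in cKO ureters and 128424 to 143652 units in control ureters. Of 12 superficial and intermediate urothelium markers 1 fell and 0 rose (7 and 0 at an unadjusted p under 0.05), with per-array medians of -0.86, -0.04, -0.19 and -0.49 and summed levels of 496524 to 810772 units in cKO ureters and 819722 to 911364 units in control ureters. The part of these shifts in the results for p53 targets was not tested. Hepatocyte markers rose in 4 of 10 cases (9 higher and 0 lower at an unadjusted p under 0.05), with a median of 1.62 ± 0.94 and summed levels of 37515 to 278056 units in cKO ureters and 37090 to 70250 units in control ureters. Adrenal cortex markers rose in 2 of 8 cases (5 higher and 0 lower at an unadjusted p under 0.05), with summed levels of 2615 to 3891 units in cKO ureters and 2119 to 2355 units in control ureters. Kidney tubule markers rose in 1 of 5 cases, with a median of -0.05 ± 0.62. The gene that rose was Cubn (ratio 2.27), with 3934 to 6536 units in cKO ureters and 1026 to 1357 units in control ureters. Summed levels of the list, Cubn included, were 6045 to 8560 units in cKO ureters and 2293 to 4032 units in control ureters. Smooth muscle markers, 0 of 10 past the threshold in either direction with 4 higher at an unadjusted p under 0.05, had a median of 0.15 ± 0.11. Genes of dividing cells did not pass in any of 20 cases by limma, and 0 had an unadjusted p under 0.05. Their median was 0.02 ± 0.09, with summed levels of 472003 to 500324 units in cKO ureters and 457018 to 497148 units in control ureters.

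**Figure D5:**
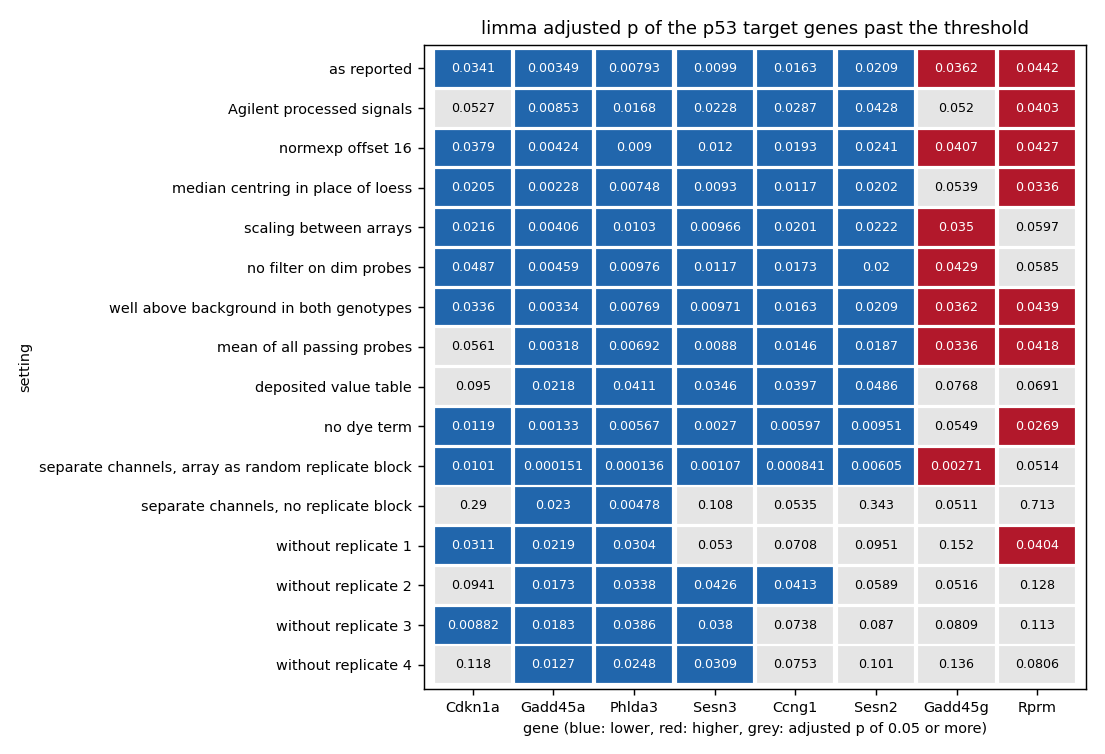
Limma adjusted p of the 8 p53 target genes past the threshold (columns) as reported and under 15 other settings (rows); blue or red marks an adjusted p under 0.05 with a lower or higher cKO level, grey a value at or above it. Gadd45a and Phlda3 pass in every row, and the calls of Sesn2 and Gadd45g end whenever an array is left out.

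The single male pair (array 2) could not be set against the female pairs as a group. With the dye in the model, the coefficient for male minus female pairs is the ratio of array 2 minus that of array 4. Array 4 is the female pair with the same dye orientation, and the female arrays 1 and 3 do not enter the estimate. Among the 36 targets the coefficient ran from -0.26 (Triap1) to 0.78 (Pmaip1) on the log2 scale. With 1 array on each side, it cannot tell sex from other differences between these 2 arrays.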

How the data were processed

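Ureter RNAs, 4 cKO and 4 control, were compared on 4 two-channel arrays, the cKO in red on arrays 1 and 3 and in green on arrays 2 and 4. The authors, per the submitters' processing notes and the headers of the files, read spot intensities (mean signal, median local background, processed signal) with Agilent Feature Extraction 10.7.3.1, with probe positions in mm9. The authors also deposited a table of log2 values that run as cKO over control; its treatment of dim probes is not stated in these sources. The other columns used, such as the well-above-background flag, are deposited as other values of 0 or 1 per the file headers.

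From these files, mean signals were corrected with normexp (offset 50), normalised within each array by loess (control spots given weight 0), and turned to cKO over control. Outlier spots (3.04% to 3.58%) were left out and the 4 spots of a probe averaged; 0 spots were saturated. Names came from RefSeq (28746 probes by accession, 3074 by symbol, 222 by an older symbol), 1743 probes kept their name, and 5644 without one were left out. A gene was tested if a probe was well above background in over 0.5 of its spots on 4 arrays in either genotype. Levels are intensities after quantile scaling of the mean log intensity between arrays. Levels of single genes are not set against each other. The summed levels of marker lists add different probes and serve only to set cKO beside control RNAs. Ratios were fitted with limma 3.58.1 (R 4.3.3) with the dye as a term, leaving 2 residual degrees of freedom beside the prior; the SDs include the difference between dye orientations, the p-values do not. The number of arrays limits the precision.

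The members, lists and tests were chosen with earlier results of these data known. Named genes are all members, other pathway genes past the threshold, Trp53, Mdm2, Mdm4, Trp73 and Trp63. The marker lists without a value in the text (mesenchyme, endothelium, leukocytes, erythroid cells) had medians of 0.14, 0.19, -0.09 and 0.26, with 0 calls each by limma and 3, 5, 0 and 1 genes at an unadjusted p under 0.05.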

Additional observations from a re-analysis of the deposited data

Results flagged for a closer look

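In 3 of 48 genes examined (the 36 targets, Trp63 and the 11 other pathway genes named), the ratio of 1 array lay apart from the other 3 by a Dixon test at its 95% level, about the 1 in 20 that chance gives. Xpc had a ratio of 0.02 on array 3, against -0.03 on the other arrays. Mdm2 had -0.14 on array 2, against -0.30 to -0.32 elsewhere, and Trp73 had -0.14 on array 2, against -0.06 to -0.07. Array 2 is the male pair, and the part of sex in these values was not tested beyond the model coefficient given above.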

How the results depend on the processing

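The ratio of Trp63 lay between -2.38 and -1.38 over 15 alternatives and passed in each, and the median ratio of the p53 targets lay between -0.08 and -0.03. The median of all genes stayed within -0.006 and 0.019. For single named genes other than Trp63, 640 values kept their side of the threshold, 54 lost a call and 11 gained one, and 0 called values changed direction. Against 2 higher targets as reported, 1 was higher with Agilent's processed signals, median centring, scaling between arrays, no filter on dim probes or no dye term, and 0 with the deposited value table. Against 1 other pathway gene, 0 were higher with Agilent's signals, the deposited table or no dye term. Over all genes, 252 were higher and 581 lower with the deposited table, against 528 and 1019 as reported. Agilent's signals, median centring, scaling and no filter on dim probes gave 473, 475, 523 and 482 higher genes, the last of 24382 tested. The array pairs the RNAs in each ratio. With separate channels and the array as a random replicate block (intra-spot correlation 0.741), 3 targets were higher (Gadd45g, Plk2 and Bbc3, without Rprm) and 8 lower, 3 other pathway genes higher and 9 lower, and 1230 and 1727 of all genes higher and lower. With no replicate block these were 0 and 2 targets (Gadd45a and Phlda3), 0 and 4 other pathway genes, and 122 and 439 of all genes. With an array left out, 0 to 1 targets were higher and 3 to 5 lower, 0 to 1 and 3 to 4 other pathway genes, and 278 to 352 and 555 to 759 of all genes; fewer arrays were fitted there. The causes of the other shifts were not tested. Low signal over background limits the precision for Eda2r, at 114 to 148 units in cKO ureters and 127 to 141 units in control ureters. Its ratio lay between -0.29 and 0.01 over 15 alternatives.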

Other observations

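The largest dye terms of the 36 targets, in size, were those of Bax, Btg2, Pmaip1 and Bbc3, at 0.38, -0.23, -0.22 and 0.20 on the log2 scale (limma, adjusted p = 0.833 to 0.865), beside genotype ratios of -0.22, 0.02, -0.27 and 0.19. The dye term passed the threshold for 0 of 36 targets and 0 of 18185 genes. Mdm2, which missed the threshold, had cKO levels of 19494 to 21321 units, all below its control levels of 23152 to 26199 units.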
